A study of Mus musculus with 6 samples.

Results

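The 9 genes described here encode enzymes that make serine, asparagine and proline or that pass the carbon of serine on to folate in mitochondria: Asns, Phgdh, Psat1, Psph, Shmt2, Mthfd2, Aldh1l2, Pycr1 and Aldh18a1. They were taken by name from the deposited table of 14003 genes, and all 9 were present. Their RNA was compared between 3 libraries of cells given 200 µM sulfasalazine for 24 h and 3 libraries of untreated cells, all labelled MC3T3-E1, a preosteoblast line of wild-type genotype derived from mouse calvaria. Sulfasalazine is an anti-inflammatory drug that also blocks cystine uptake by the xCT transporter. The labels name no vehicle. They also leave unsaid whether replicates came from cultures of their own, and p-values here therefore reflect only the scatter of these libraries, possibly technical.

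Serine is made from the glycolytic intermediate 3-phosphoglycerate in consecutive steps by PHGDH, PSAT1 and PSPH. Mitochondrial SHMT2 splits serine into glycine and a carbon unit carried by folate, which MTHFD2 and ALDH1L2 oxidise further. ASNS makes asparagine from aspartate and glutamine, while ALDH18A1 and PYCR1 carry glutamate to proline. Several of these genes are known targets of ATF4, the transcription factor that the integrated stress response raises when amino acids run short. Bone-forming cells are known to draw on these routes because collagen is rich in glycine and proline.

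Reads recovered from the deposited values numbered 19247900 to 21579133 per sulfasalazine library and 15980935 to 20828706 per untreated library. On the first principal component the sulfasalazine libraries scored -59.2 to -54.1. Untreated replicate 3, the shallowest library, stood apart from its group with a score of 42.6, where the other untreated libraries scored 63.2 and 65.3. The preosteoblast label was only partly borne out by markers. Of 12 osteoblast markers 8 had values, and 5 of those averaged below 1 FPKM (fragments per kilobase of gene, scaled to library size), among them Col1a1 and Sp7, whereas Runx2 and Spp1 were present and called lower (log2 fold changes -0.36 and -0.97). Sparc was also present, at 23.1 ± 7.44 FPKM with sulfasalazine and 22.4 ± 18.4 FPKM without. It was not called (log2 fold change 0.28, limma adjusted p = 0.624). The osteoblast list summed to 889.7 to 1110.1 FPKM with sulfasalazine and 1549.9 to 2143 FPKM without. Most of each sum was Spp1, at means of 947 FPKM with sulfasalazine and 1868 FPKM without. Of 10 epithelial markers 8 had values. The 4 at 10 FPKM or more were all keratin genes, while 3, namely Cldn3, Cldn7 and Esrp1, averaged below 1 FPKM. Cdh1 stood at 7.55 ± 2.10 FPKM with sulfasalazine and 6.42 ± 1.11 FPKM without. It was not called (limma adjusted p = 0.492). The summed level of the epithelial list was 1972 to 2207 FPKM with sulfasalazine and 1535 to 1726 FPKM without. Its keratins were split, with Krt8 and Krt18 called higher (1.65 and 0.37 on the log2 scale) and Krt19 and Krt7 called lower (-1.21 and -1.27). The call of Krt18 was the weaker of the first pair (limma adjusted p = 0.0306, against 2.00e-05 for Krt8). The authors' deposited table gave Krt18 an adjusted p of 0.174. Fibroblast markers summed to 1271 to 1485 FPKM with sulfasalazine and 1548 to 2044 FPKM without, carried by Vim, which was called higher (log2 fold change 1.17), and Fn1, which was called lower (-1.53). Of the other lists, 2 of 6 leukocyte markers had values: Csf1r was near 0, and Cd68, at 22.0 ± 5.70 FPKM with sulfasalazine and 42.6 ± 12.5 FPKM without, was called lower (log2 fold change -0.91, limma adjusted p = 0.0111). Also, 2 of 5 endothelial markers had values, at a summed level of at most 0.139 FPKM in any library. The part of the marker differences in the results that follow was not tested, and fewer cells of a type and less RNA per cell cannot be told apart in bulk samples.

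Sulfasalazine-treated cells had less RNA of 8 of the 9 genes, and none was called higher (limma on log2(FPKM + 1), Benjamini-Hochberg adjusted p under 0.05 over 10338 tested genes). All 9 log2 fold changes were below 0, and voom on recovered reads likewise called 0 of them higher. The exception among the calls was Psph, the last step of serine synthesis. Among all tested genes 29.3% were called lower and 37.2% higher. All 8 called genes had a log2 fold change of -1 or below, a limit that 13.9% of tested genes met together with the adjusted p. The same 8 had all 3 sulfasalazine values below all 3 untreated values, as did 31.1% of tested genes. The median log2 fold change of the 9 genes was -1.58, against 0.08 over all tested genes. The 9 genes thus stood at -1.67 relative to the median of all genes. Under quantile normalization the median of all genes was -0.02. Summed over the 9 genes, FPKM came to 793, 732 and 1259 in sulfasalazine replicates 1, 2 and 3, against 2288, 3170 and 2793 in untreated replicates 1, 2 and 3.

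**Figure D1:**
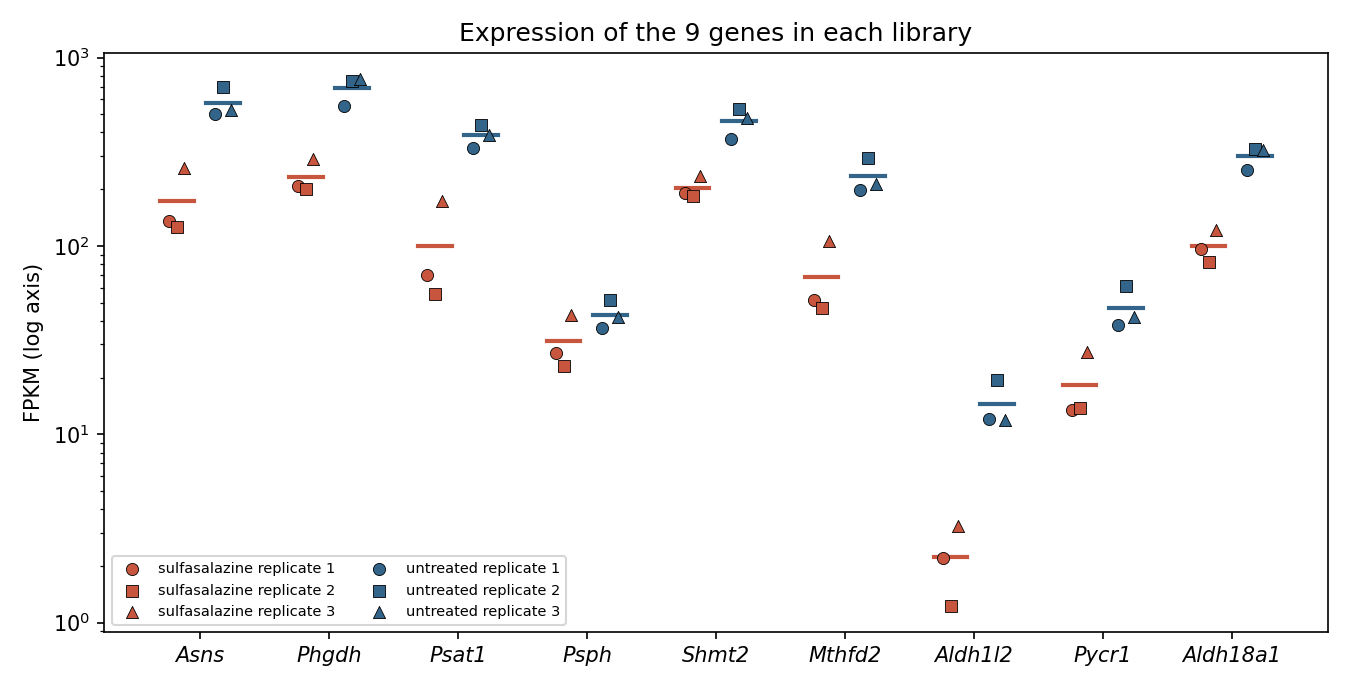
FPKM on a log axis of the 9 genes in each library, with a bar at each group mean. For 8 genes the 3 sulfasalazine points lie below the 3 untreated points, and for Psph they overlap.

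Asns, which encodes asparagine synthetase (chromosome 6, 7675169 to 7693254, GRCm38, reverse strand), stood at 135, 126 and 259.8 FPKM in sulfasalazine replicates 1, 2 and 3, against 499.8, 701 and 527 FPKM in untreated replicates 1, 2 and 3. The groups did not overlap, and the highest sulfasalazine value was that of replicate 3. Its mean was 174 ± 74.7 FPKM with sulfasalazine and 576 ± 109 FPKM without (SD, n = 3 each), a log2 fold change of -1.79 (SE 0.27, limma adjusted p = 0.000608). Only 3.74% of tested genes had a log2 fold change this low or lower. In level, Asns was at the 93.5th percentile of tested genes in treated cells and at the 98.3rd percentile in untreated cells.

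The promoter of Asns is known for an element that answers amino acid shortage through C/EBP and ATF factors. The core of this element, TGATGNAA, was searched on both strands of the RefSeq promoter windows (GRCm38.p6, 250 bases before to 50 after the start of a gene), which were at hand for 8 of the 9 genes as 9 windows, with 2 for Psat1. It was found in 2 of them, those of Asns and Pycr1, and in 3.97% of all 32851 windows. These windows are printed because they hold the matches, in the direction of transcription, with the match in capitals.
Asns, chr6:7693160-7693459, reverse strand: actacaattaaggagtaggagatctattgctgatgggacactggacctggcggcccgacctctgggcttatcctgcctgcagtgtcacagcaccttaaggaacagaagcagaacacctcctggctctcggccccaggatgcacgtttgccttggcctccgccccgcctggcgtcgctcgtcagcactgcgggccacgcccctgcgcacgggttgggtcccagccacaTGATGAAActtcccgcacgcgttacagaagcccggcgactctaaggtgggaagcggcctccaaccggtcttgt
Pycr1, chr11:120643699-120643998, reverse strand: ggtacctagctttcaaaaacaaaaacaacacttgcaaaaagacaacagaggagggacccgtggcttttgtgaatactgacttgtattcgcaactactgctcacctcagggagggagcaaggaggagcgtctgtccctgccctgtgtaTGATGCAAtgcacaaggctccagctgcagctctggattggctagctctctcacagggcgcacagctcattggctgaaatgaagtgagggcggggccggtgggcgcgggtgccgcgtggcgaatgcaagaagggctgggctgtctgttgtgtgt
In Asns the match begins 23 bases before the start site, and in Pycr1 it begins 103 bases before it. Of the other motifs searched on both strands, the cAMP response element TGACGTCA was in none of the 9 windows and in 1.79% of all windows. The E-box CACGTG was in the window of Aldh18a1 and in 7.15% of all windows, and the antioxidant response element core TGACNNNGC was in those of Asns, Phgdh and Psph and in 12.4% of all windows. None of these matches overlapped another. A match describes the letters of the window and does not show that a factor binds there.

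The enzymes of serine synthesis were lower in their opening steps. Phgdh, whose product commits 3-phosphoglycerate to serine (chromosome 3, 98313170 to 98339990), stood at 207, 200.0 and 288 FPKM in sulfasalazine replicates 1, 2 and 3, against 554, 747 and 766 FPKM in untreated replicates 1, 2 and 3. The groups did not overlap, and untreated replicate 1 was the lowest of its group. The mean was 232 ± 48.8 FPKM with sulfasalazine and 689 ± 117 FPKM without (SD, n = 3 each), a log2 fold change of -1.57 (SE 0.18, limma adjusted p = 0.000153). Of the 50-base words in Phgdh transcripts, 47.8% occur in transcripts of other genes, mainly the predicted gene Gm7901, so part of its reads cannot be assigned with certainty.

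Psat1, the transaminase of the next step (chromosome 19, 15904678 to 15947337), stood at 69.6, 55.5 and 174 FPKM in sulfasalazine replicates 1, 2 and 3, against 329, 438 and 389.9 FPKM in untreated replicates 1, 2 and 3. Again no values overlapped, while sulfasalazine replicate 3 lay well above replicates 1 and 2. The mean was 99.5 ± 64.4 FPKM with sulfasalazine and 386 ± 54.8 FPKM without (SD, n = 3 each), a log2 fold change of -2.12 (SE 0.37, limma adjusted p = 0.0013).

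Psph, the phosphatase that releases serine (chromosome 5, 129765558 to 129787449), had the smallest difference of the 9 genes. It stood at 27.0, 23.2 and 43.2 FPKM in sulfasalazine replicates 1, 2 and 3, against 36.5, 51.4 and 41.8 FPKM in untreated replicates 1, 2 and 3. The groups overlapped through sulfasalazine replicate 3, which was above untreated replicates 1 and 3. The log2 fold change of -0.50 had a 95% interval of -1.03 to 0.04 and did not pass (limma adjusted p = 0.0907). Psph passed as lower without sulfasalazine replicate 3 (log2 fold change -0.75, limma adjusted p = 0.00945), after scaling by median ratios (limma adjusted p = 0.034) and with voom on the recovered reads (limma adjusted p = 0.033); over all alternatives the adjusted p ran from 0.00433 to 0.284. Cct6a, on the opposite strand, and other genes cover 10.4% of the exonic bases of Psph, and Cct6a was itself lower (log2 fold change -1.15, limma adjusted p = 4.26e-05).

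The ratio of the earlier steps to Psph was lower with sulfasalazine, a comparison chosen after the values were seen. Phgdh and Psat1 fell further than Psph, so the lower ratio follows from those values and is no separate support for the calls. The log2 ratio of Psat1 to Psph was 1.33, 1.23 and 1.98 in sulfasalazine replicates 1, 2 and 3, against 3.14, 3.07 and 3.19 in untreated replicates 1, 2 and 3. That of Phgdh to Psph averaged 2.89 ± 0.17 with sulfasalazine and 3.96 ± 0.18 without (SD, n = 3 each). Neither ratio overlapped between groups, and each gave p = 0.1 in a two-sided exact permutation test, the smallest that 3 libraries against 3 can give.

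All 3 mitochondrial folate enzymes among the 9 genes were lower. Shmt2 (chromosome 10, 127517123 to 127522444), which feeds serine into the pathway, stood at 190.2, 183 and 236 FPKM in sulfasalazine replicates 1, 2 and 3, against 368, 533 and 479 FPKM in untreated replicates 1, 2 and 3. Its values did not overlap, and its log2 fold change of -1.17 (SE 0.17, limma adjusted p = 0.000412) was the smallest among the 8 genes called lower.

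Mthfd2, the dehydrogenase and cyclohydrolase that acts after SHMT2 (chromosome 6, 83305691 to 83325908), stood at 51.7, 46.8 and 106 FPKM in sulfasalazine replicates 1, 2 and 3, against 197, 292 and 214 FPKM in untreated replicates 1, 2 and 3. The groups did not overlap. The mean was 68.3 ± 33.1 FPKM with sulfasalazine and 234 ± 50.3 FPKM without (SD, n = 3 each), a log2 fold change of -1.84 (SE 0.30, limma adjusted p = 0.00085). The log2 ratio of Mthfd2 to Shmt2, a comparison chosen after the values were seen, averaged -1.65 ± 0.44 with sulfasalazine and -0.97 ± 0.16 without, and its groups overlapped (two-sided exact permutation p = 0.2, n = 3 each).

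Aldh1l2, which oxidises formyl-folate to carbon dioxide with the formation of NADPH (chromosome 10, 83487450 to 83534140), had the lowest level of the 9 genes in either group. Its fall was the largest of the 9, except without sulfasalazine replicate 3, where Psat1 stood at -2.60 and Aldh1l2 at -2.49 in log2 fold change. It stood at 2.197, 1.23 and 3.25 FPKM in sulfasalazine replicates 1, 2 and 3, against 12.003, 19.3 and 11.9 FPKM in untreated replicates 1, 2 and 3. These values rest on 116, 60 and 153 recovered reads with sulfasalazine and on 573, 983 and 464 without. The log2 fold change was -2.27 (SE 0.28, limma adjusted p = 0.000196) on the log2(FPKM + 1) scale, which understates the change of low genes, and -2.70 with a pseudocount of 0.1. Other genes, mainly D10Wsu102e on the opposite strand, cover 14.1% of its exonic bases.

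The proline genes were also lower. Aldh18a1, whose product starts proline synthesis from glutamate (chromosome 19, 40550257 to 40588463), stood at 96.7, 82.0 and 122 FPKM in sulfasalazine replicates 1, 2 and 3, against 254, 327 and 321 FPKM in untreated replicates 1, 2 and 3. With a log2 fold change of -1.58 (SE 0.17) it had the smallest adjusted p of the 9 genes (limma adjusted p = 9.07e-05). Pycr1, the mitochondrial reductase that completes proline (chromosome 11, 120635712 to 120643769), stood at 13.5, 13.8 and 27.3 FPKM in sulfasalazine replicates 1, 2 and 3, against 37.9, 61.2 and 42.0 FPKM in untreated replicates 1, 2 and 3. Neither gene's groups overlapped, and the log2 fold change of Pycr1 was -1.36 (SE 0.29, limma adjusted p = 0.00331). The log2 ratio of Aldh18a1 to Pycr1, chosen after the values were seen, averaged 2.45 ± 0.32 with sulfasalazine and 2.67 ± 0.26 without (SD, n = 3 each; two-sided exact permutation p = 0.5).

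In level per gene length, the order was led by Phgdh, Shmt2 and Asns with sulfasalazine, at 232, 203 and 174 FPKM, and by Phgdh, Asns and Shmt2 without, at 689, 576 and 460.0 FPKM. Aldh18a1 and Psat1 were next with sulfasalazine at 100.3 and 99.5 FPKM, which differ by less than their spread (SD 20.3 and 64.4, n = 3 each). Mthfd2 followed at 68.3 FPKM with sulfasalazine and 234 FPKM without. Psph and Pycr1 lay lower, at 31.1 and 18.2 FPKM with sulfasalazine and 43.2 and 47.0 FPKM without, where they differ by less than their spread. Aldh1l2 came last at 2.23 FPKM with sulfasalazine and 14.4 FPKM without. Among tested genes ranked by level, it stood at the 7.15th percentile with sulfasalazine and at the 41.9th without, while Phgdh stayed near the top at the 95.6th and 98.7th percentiles with and without sulfasalazine. As a share of the untreated mean, the sulfasalazine mean was 15.5% for Aldh1l2, 25.8% for Psat1, 29.1% for Mthfd2 and 30.1% for Asns. It was 33.4% for Aldh18a1, 33.6% for Phgdh, 38.8% for Pycr1, 44.1% for Shmt2 and 72.0% for Psph. The 9 genes lie on 6 chromosomes, and all 9 are on the reverse strand.

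Within the treated group, the genes shared a library pattern. Sulfasalazine replicate 3 was the highest of its group for 9 of 9 genes, as it was for 55.3% of tested genes. Its value was 1.26 times the mean of replicates 1 and 2 for Shmt2 and 2.77 times for Psat1, the lowest and highest of the 9 ratios, with a median of 1.90. Mthfd2, Pycr1 and Asns lay near the upper end at 2.16, 2.00 and 1.99 times, and Psph was at 1.72. Phgdh and Aldh18a1 were nearer to Shmt2, at 1.41 and 1.37 times. The ratio was above 1.3 for 8 of the 9 genes and for 18.1% of tested genes. In the related lists described below it was above 1.3 for 9 of 18 regulators, 4 of 6 amino acid carriers and 5 of 11 folate genes. For the serine and glycine, asparagine and glutamine, and proline lists the counts were 2 of 12, 1 of 9 and 0 of 6. The pattern was thus not particular to the 9 genes. Atf4 had a ratio of 1.72. Among untreated libraries, replicate 2 was the highest for 8 of 9 genes, against 20.0% of tested genes, and replicate 1 the lowest for 8 of 9, against 30.2%. Without sulfasalazine replicate 3 all 9 genes were called lower.

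**Figure D2:**
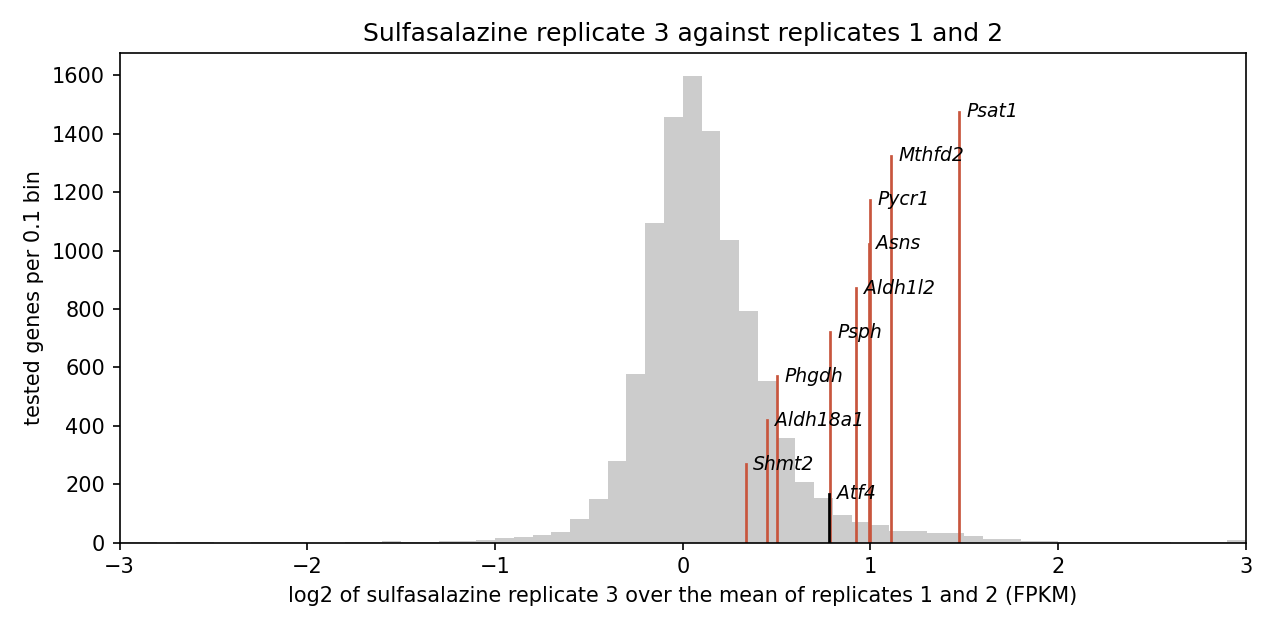
Histogram over tested genes of the log2 ratio of sulfasalazine replicate 3 to the mean of sulfasalazine replicates 1 and 2 in FPKM, with ratios beyond 3 placed at the edge and lines at the 9 genes (red) and Atf4 (black), whose heights only keep the names apart. All 9 lines lie to the right of 0, from Shmt2 at a ratio of 1.26 to Psat1 at 2.77.

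Most of the enzymes have a paralog, and these did not move alike. Pycrl, which encodes a cytosolic reductase of the same reaction as PYCR1, rose to 68.0 ± 5.47 FPKM with sulfasalazine, against 25.7 ± 5.49 FPKM without (log2 fold change 1.39, SE 0.16, limma adjusted p = 0.000143). Pycr1 was thus below Pycrl in each sulfasalazine library, with log2 ratios of -2.32, -2.27 and -1.15, and above it in each untreated library, with log2 ratios of 0.83, 1.29 and 0.40.

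Shmt1, the cytosolic counterpart of Shmt2, fell to 10.7 ± 3.44 FPKM with sulfasalazine, against 18.2 ± 3.95 FPKM without (log2 fold change -0.74, limma adjusted p = 0.0258). That call was lost without sulfasalazine replicate 1, sulfasalazine replicate 2 or untreated replicate 2 (limma adjusted p = 0.0982, 0.0845 and 0.0963). Mthfd2l, a mitochondrial relative of Mthfd2, stood at 7.49 ± 0.59 and 6.84 ± 1.36 FPKM in treated and untreated cells (log2 fold change 0.13, 95% interval -0.27 to 0.52, limma adjusted p = 0.531, with the opposite sign under quantile normalization and an adjusted p of 0.049 without replicate 3 of both groups). Aldh1l1, the cytosolic counterpart of Aldh1l2, had 0 to 4 recovered reads per library with sulfasalazine and 1 or 2 without, so the ratio of that pair follows Aldh1l2 alone. Asnsd1, which shares a synthetase domain with ASNS, rose to 4.29 ± 0.34 FPKM with sulfasalazine, against 2.18 ± 0.57 FPKM without (log2 fold change 0.75, limma adjusted p = 0.00478; lost under quantile normalization at 0.0542). Gm28551 and other genes cover 56.5% of the exonic bases of Asnsd1.

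The log2 ratio of member to paralog was lower with sulfasalazine in all 5 pairs compared. The difference was -0.43 for Shmt2 over Shmt1, -1.97 for Mthfd2 over Mthfd2l, -2.29 for Aldh1l2 over Aldh1l1, -2.53 for Asns over Asnsd1 and -2.75 for Pycr1 over Pycrl. In each pair the 3 sulfasalazine ratios lay below the 3 untreated ratios. Each pair gave p = 0.1 in the two-sided exact permutation test, and 0.1 again after Benjamini-Hochberg adjustment over the 5 pairs, the smallest value that 3 against 3 allows. All 5 members were themselves called lower, so the ratio falls wherever the paralog fell less or rose. The shared direction of the pairs is thus no separate support for the member calls, and Aldh1l1 was too low to be tested.

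**Figure D3:**
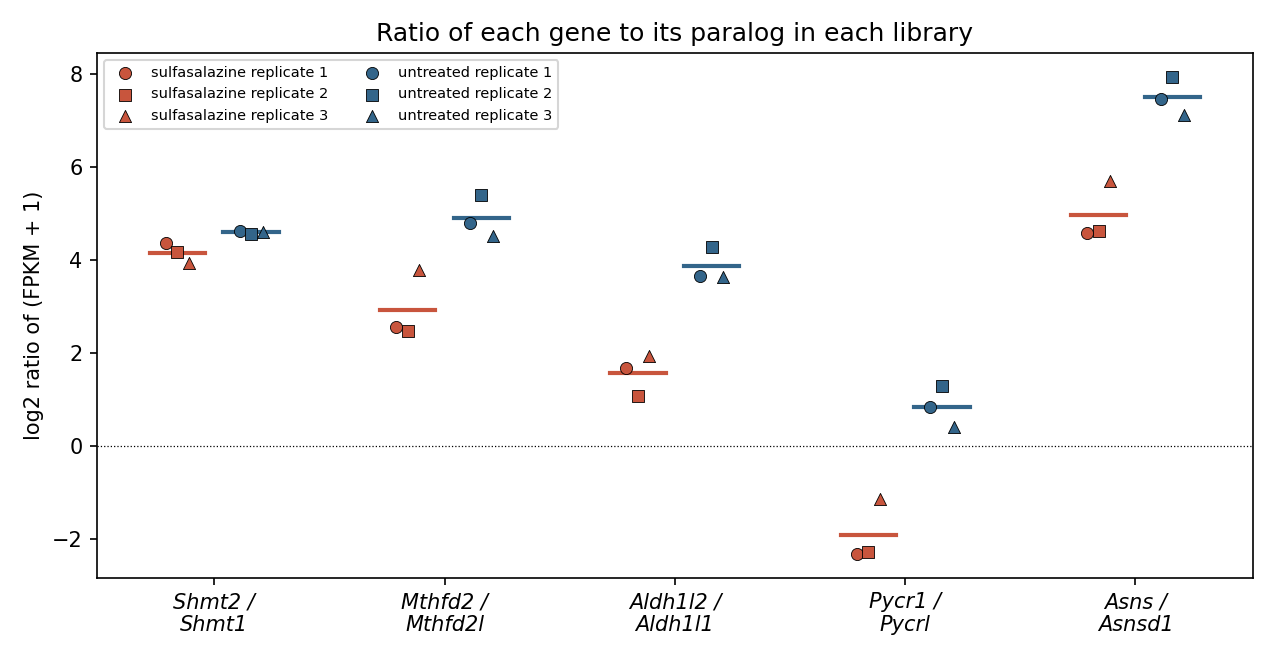
Log2 ratio of (FPKM + 1) of each gene to its paralog in each library, with a bar at each group mean. In all 5 pairs the sulfasalazine points lie below the untreated points, with the smallest gap for Shmt2 over Shmt1.

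Other genes of the same routes were described by 6 lists with 83 names, of which 75 had values and 62 were tested. Of these 27 were called lower and 20 higher, with a median log2 fold change of -0.19. Over all tested genes the shares were 29.3% lower and 37.2% higher, and several of the list counts below lie near them. Of 12 other serine and glycine genes, 7 rose and 3 fell (median 0.44). Cth, the cystathionine lyase that uses serine carbon for cysteine, fell to 1.08 ± 0.76 FPKM with sulfasalazine, against 22.0 ± 13.1 FPKM without (log2 fold change -3.39, SE 0.40, limma adjusted p = 0.000157). Dld, a dehydrogenase subunit shared by the glycine cleavage system, fell by 1.78 on the log2 scale. Sdsl, related to serine dehydratase, rose by 1.94 to 4.99 ± 0.95 FPKM, against 0.61 ± 0.53 FPKM without, and Amt, of the glycine cleavage system, rose by 1.58. Both are low in untreated cells, and with a pseudocount of 0.1 their log2 fold changes were 3.28 and 2.91.

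Of 9 asparagine, aspartate and glutamine genes, 3 rose and 4 fell (median -0.35). Got1, the cytosolic aspartate aminotransferase, fell to 72.4 ± 9.36 FPKM with sulfasalazine, against 316 ± 28.7 FPKM without (log2 fold change -2.12, SE 0.13, limma adjusted p = 9.11e-06). Ass1 and Asl, which encode consecutive enzymes from aspartate to arginine, moved in opposite directions: Ass1 fell by 2.52 and Asl rose by 2.35 on the log2 scale. Gpt2, the mitochondrial alanine aminotransferase, fell by 0.78, a call lost without sulfasalazine replicate 1 or 2 (limma adjusted p = 0.0627 and 0.0613).

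Of 6 other proline and ornithine genes, 3 rose and 1 fell (median 0.36). Besides Pycrl, Oat, the aminotransferase between ornithine and the proline precursor, rose to 57.8 ± 0.82 FPKM with sulfasalazine, against 26.7 ± 1.67 FPKM without (log2 fold change 1.09, limma adjusted p = 5.75e-05). Prodh, which starts proline breakdown, fell by 0.59. Aldh4a1, which completes it, had a log2 fold change of 0.66 (limma adjusted p = 0.0386) that was lost under median-of-ratios scaling (0.062), quantile normalization (0.109), voom (0.05002) or no filter (0.0666), and without any sulfasalazine library or untreated replicate 2 (0.0684 to 0.0961).

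Of 11 other folate genes and mitochondrial carriers, 4 rose and 4 fell (median -0.11). Sfxn3, of the sideroflexin family of mitochondrial serine carriers, rose to 66.6 ± 5.22 FPKM with sulfasalazine, against 10.8 ± 3.35 FPKM without (log2 fold change 2.56, limma adjusted p = 3.17e-05). Sfxn2 rose by 1.62 (2.54 with a pseudocount of 0.1), and Mtfmt, the mitochondrial formyltransferase that uses folate, by 1.58. Of 6 tested amino acid carriers 2 fell and 4 did not pass (median -0.32). Those that fell were Slc38a7, of a lysosomal glutamine and asparagine carrier, by 1.28 and Slc1a5, of a plasma membrane carrier of glutamine and serine, by 1.13.

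**Figure D4:**
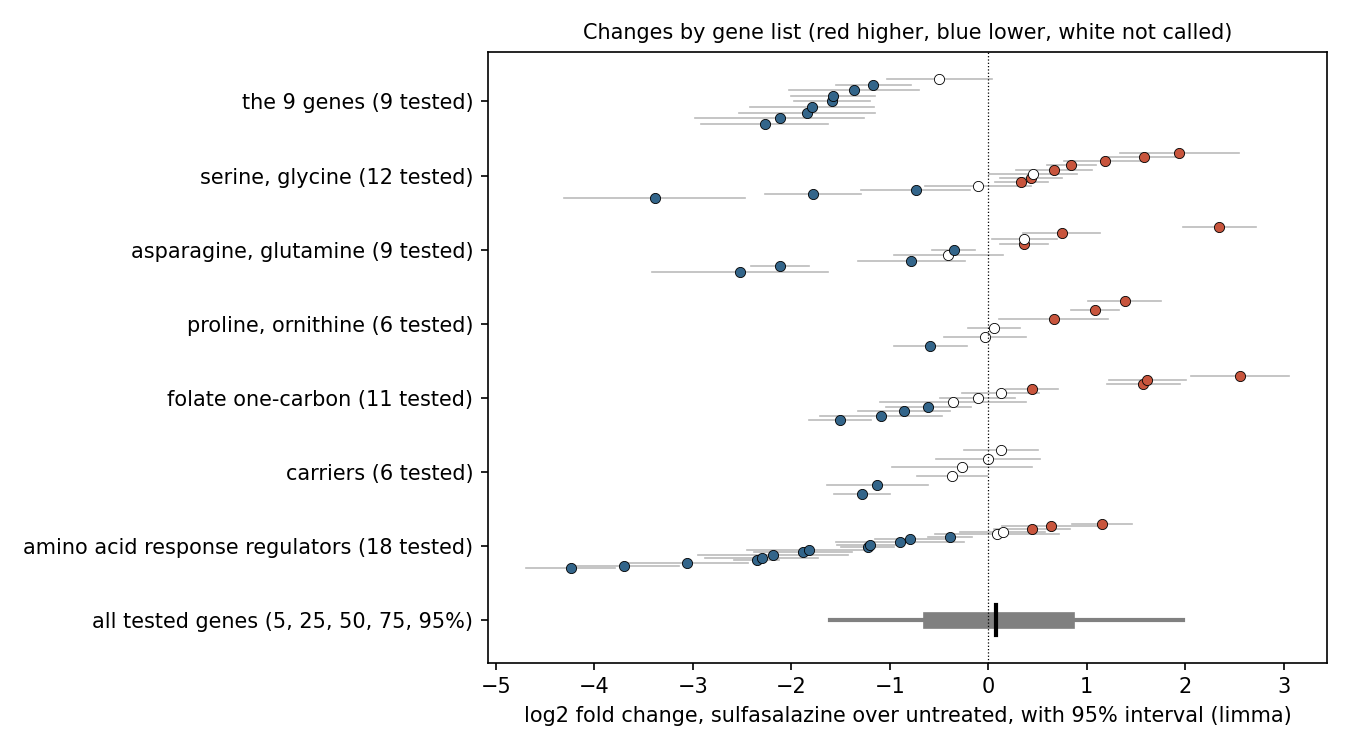
Log2 fold change of sulfasalazine over untreated cells for the tested genes of each list with 95% intervals from limma, above a thin bar for the 5th to 95th percentile of all tested genes, a thick bar for the 25th to 75th and a tick at the median. Of the 9 genes 8 are called lower, and the related lists hold calls on either side of 0, except that the called carriers are all lower.

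The list of amino acid response regulators, which also holds broader growth and stress genes such as Myc, was mostly lower. Of 18 tested, 13 were called lower and 3 higher (median -1.21), against 29.3% and 37.2% of all tested genes. Atf4 stood at 325, 307 and 543 FPKM in sulfasalazine replicates 1, 2 and 3, against 1433, 1462 and 1288 FPKM in untreated replicates 1, 2 and 3. The groups did not overlap, and its log2 fold change of -1.88 (SE 0.22, limma adjusted p = 0.000138) lay within the range of the 8 enzymes. The largest falls were those of Ppp1r15a, a phosphatase subunit that ends the response (log2 fold change -4.24), of Ddit3 and Atf3, encoding further stress-induced factors (-3.70 and -3.06), and of Myc, a growth regulator (-2.35). The 3 that rose, named after their values were seen, encode kinases of eIF2α: Eif2ak1 by 1.15, Eif2ak2 by 0.64 and Eif2ak4, which senses uncharged tRNA, by 0.44. Their limma adjusted p values were 0.000138, 0.0305 and 0.0456, so that of Eif2ak4 passed narrowly. The authors' deposited table gave these 3 genes adjusted p values of 2.36e-08, 0.0347 and 0.116. Eif2ak3, the kinase of endoplasmic reticulum stress, had a log2 fold change of 0.15 (95% interval -0.29 to 0.58, limma adjusted p = 0.511). Atf5, also named after its values were seen, was the other tested regulator that was not called. It stood at 406 ± 179 FPKM with sulfasalazine and 363 ± 53.8 FPKM without, and its groups overlapped. Its log2 fold change was 0.09 (95% interval -0.54 to 0.71, limma adjusted p = 0.787).

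In the authors' deposited table, 8 of the 9 genes had an adjusted p under 0.05 with a log2 fold change below -1, as had 16.1% of its 14003 genes. The authors' deposited table gave Psph a log2 fold change of -0.59 with an adjusted p of 0.0332, and Aldh1l2 a log2 fold change of -2.81.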

How the data were processed

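RNA of 3 sulfasalazine and 3 untreated samples was sequenced as paired-end Illumina reads, per the labels' protocols, which name a kit for plant RNA and an rRNA depletion kit for bacteria. The submitters' processing notes list HISAT2 2.2.1, HTSeq 0.13.5, fastp 0.23.0, build mm39 and edgeR without their roles. The authors deposited 1 FPKM value per gene and library, a library-size-adjusted signal, and their own log2 fold change with its p-value and adjusted p-value. Of the 14003 genes 13982 were in GENCODE release M21 and 13849 had its start and end, so coordinates are given as GRCm38.

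A gene was tested where 3 or more libraries reached 1 FPKM, with limma 3.58.1 in R 4.3.3 on log2(FPKM + 1), with an intensity trend, two-sided. Whole reads were recovered with Python 3.11.15: after scaling by 1 factor per library, 100.0% of the FPKM values above 0 were within 0.001 of a whole number of reads in a common step per gene, and where several sets of reads were possible (654 genes took a multiple of the smallest) the set nearest to the deposited signal was taken. The fit was tested on simulated data, with no outcome reported here.

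The 9 genes and the lists were chosen with earlier results of these data known. Genes named are the 9, their paralogs, Atf4, and up to 4 called genes per related list with the largest change; exceptions are marked or are markers. Some items are counted within their list but not reported here by name. Shared sequence was searched as exonic bases in other genes and as 50-base words, and whether reads were counted by strand is unstated. Alternatives were other pseudocounts, filters, scalings, thresholds, the replicate number as a block, left-out libraries and voom. For the few pairs an exact permutation test was used.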

Additional observations from a re-analysis of the deposited data

How the results depend on the processing

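Under the 17 alternatives, 8 or 9 of the 9 genes were called lower and 0 higher; leaving out 1 library at a time gave 8 to 9. The 9th call was Psph, whose log2 fold change ran from -0.77 to -0.31. With the replicate number as a block (replicate block) 8 were called lower, with 2771 of all tested genes lower and 3649 higher. Same-numbered libraries deviated from their group means with correlations of 0.04, -0.19 and -0.17. Differently numbered libraries gave correlations of -0.14 to 0.21. With 3 libraries per group these values cannot decide whether same-numbered samples were paired. Requiring an absolute log2 fold change of at least 1 left 1440 genes lower, 1990 higher and 10 of the related genes higher, by the stricter rule itself. The count of related genes called higher, 20 in the main fit, also depended on scaling. It was 15 under median-of-ratios scaling, 16 under quantile normalization and 15 with voom. Leaving out 1 library gave 14 to 20 related genes higher and 22 to 29 lower, against 27 lower in the main fit. Voom on the recovered reads called 3532 genes lower and 3478 higher. Leaving out 1 library gave 2454 to 3527 genes lower and 3387 to 4206 higher.

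The log2 fold change of Mthfd2l was -0.10 under quantile normalization, opposite in sign to 0.13; the cause was not tested. The difference in the ratio of Aldh1l2 to Aldh1l1 was -2.81 with a pseudocount of 0.1, against -2.29, and the log2 fold change of Aldh1l2 itself moved to -2.70, against -2.27. Depth limits genes with few recovered reads, such as Aldh1l1 with 0 to 4 per library.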
